A study of Mus musculus with 12 samples.

Results

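The dentate gyrus granule cell genes are 8 genes that mark or are enriched in granule neurons of the hippocampal dentate gyrus, namely C1ql2, C1ql3, Prox1, Dsp, Lct, Tdo2, Neurod1 and Calb1. They were taken by symbol from the count table, in which all 8 were found among 33024 gene symbols. Bulk RNA was sequenced from brain cortex of 12 C57BL/6 mice, of which 7 were controls (Control) and 5 had drunk ethanol (EtOH). The EtOH mice were offered water or 20% (v/v) ethanol for 12 h a night from 30 days of age, over 35 sessions, and the controls had water alone. All 12 mice then went 14 days without ethanol and through behavioural tests before the tissue was taken. The labels give neither sex nor the cortical region sampled. Values are CPM, that is counts scaled to library size with edgeR's TMM factors, and the quasi-likelihood test of edgeR was run over the 16059 genes that passed its filter on low counts. A gene was called at an adjusted p under 0.05 with a log2 fold change above 0.5 in size. By this rule 4.2% of the genes tested were higher and 4.09% lower in the EtOH mice, and their median log2 fold change was 7.2e-05. Total counts ran from 31768076 to 42183029 per mouse, with control mouse 5 and EtOH mouse 1 the deepest of their groups.

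Granule neurons are the principal cells of the dentate gyrus, receive input from the entorhinal cortex and send mossy fibres to the CA3 field of the hippocampus. The homeobox factor Prox1 keeps their identity, Neurod1 is needed for their formation, and the secreted proteins C1ql2 and C1ql3 organise their mossy fibre synapses. The neocortex has no granule neurons of this kind, although its own neurons express Calb1, C1ql3 and Neurod1, and Prox1 is found in a class of cortical interneurons.

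Of the 8 genes, 6 were higher in the EtOH mice (C1ql2, Dsp, Lct, Prox1, Tdo2 and Neurod1), against 4.2% of all genes tested, and 0 were lower, against 4.09%. DESeq2 and limma voom gave the same counts, and 0 of the 8 were lower at an unadjusted p under 0.05 in edgeR, a threshold that 18.6% of all genes tested passed higher and 17.9% lower. C1ql3 and Calb1 did not pass the test, with log2 fold changes of -0.013 and 0.00098. In 5 of the 8 genes every EtOH mouse lay above every control mouse, which held for 4.84% of all genes tested. All 8 genes were tested, but Dsp reached 10 counts in only 1 control mouse and entered the test through the EtOH mice, so the counts over the 8 genes are a description. Markers of some other tissues differed as well. The summed level of 10 striatal projection neuron genes was 995 to 2385 CPM in the controls and 235 to 302 CPM in the EtOH mice. That of 6 choroid plexus genes was 7.86 to 21.7 CPM and 11.5 to 991 CPM. EtOH mice 2 (20.4 CPM) and 5 (11.5 CPM) were within the control range for the choroid plexus genes. The part of tissue composition in the changes below was not tested, and in bulk tissue more cells of a type and more RNA per cell cannot be told apart.

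**Figure D1:**
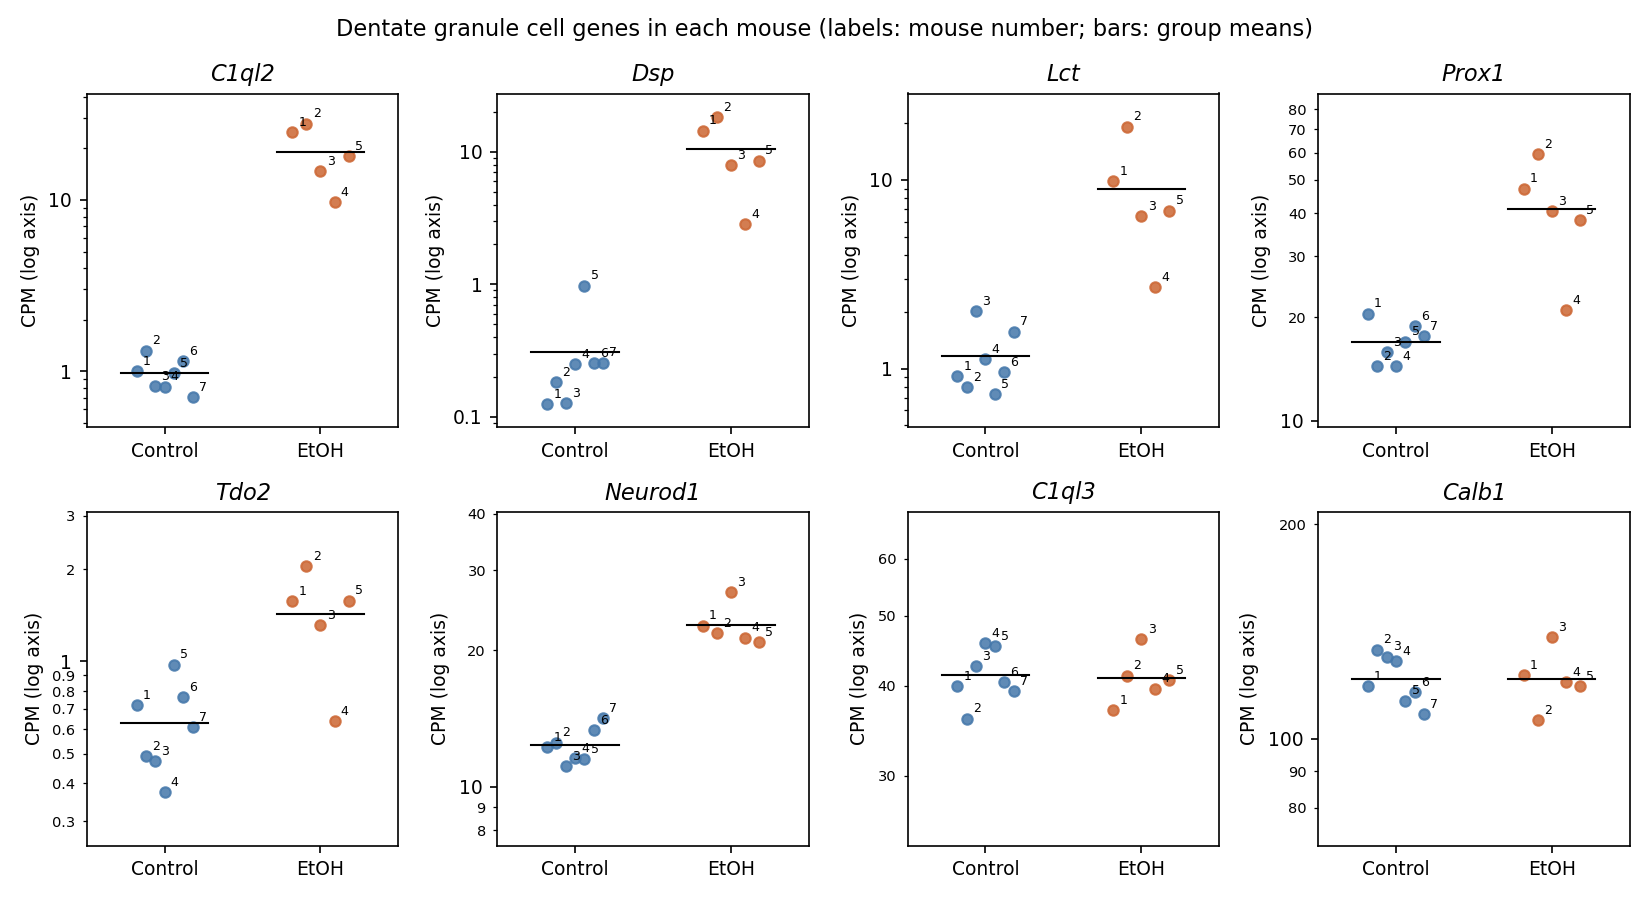
CPM of each gene (log axes) in the 7 Control and 5 EtOH mice; points are mice with their numbers and bars are group means. C1ql2, Dsp, Lct, Prox1 and Neurod1 do not overlap between the groups, Tdo2 overlaps through EtOH mouse 4, and C1ql3 and Calb1 overlap with close means.

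C1ql2 changed with the smallest p of the 8 genes. It encodes a C1q-like protein that granule neurons secrete at mossy fibre synapses, and lies on chromosome 1 from 120268300 to 120270903 (GRCm39, plus strand). Its level in the controls ran from 0.706 to 1.32 CPM with a median of 0.977 CPM, or 22 to 43 counts. In EtOH mice 1 to 5 it was 24.96, 27.9, 14.8, 9.71 and 18.1 CPM. Every EtOH mouse was thus far above the control range, with mouse 2 the highest and mouse 4 the lowest. The means were 0.969 ± 0.212 (SD, n = 7) and 19.1 ± 7.43 CPM (SD, n = 5). This was a rise of 4.29 on the log2 scale (SE 0.23, adjusted p = 1.53e-09 by edgeR). The level differed 2.88-fold between the highest and the lowest EtOH mouse.

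Its paralogue C1ql3, on chromosome 2 from 13006580 to 13016617 (minus strand), also encodes a secreted synaptic organiser but is expressed by many cortical neurons. It ran from 36.0 to 45.8 CPM in the controls (median 40.5) and was 37.0, 41.3, 46.5, 39.6 and 40.7 CPM in EtOH mice 1 to 5. The groups overlapped, with EtOH mouse 3 just above the highest control and a log2 fold change of -0.013 (95% interval -0.16 to 0.13, edgeR adjusted p = 0.915). The log2 ratio of C1ql2 to C1ql3 within a mouse rose from -5.35 ± 0.37 (SD, n = 7) to -1.19 ± 0.65 (SD, n = 5), which is 4.16 higher (p = 0.00126 in a two-sided exact permutation test, the smallest that groups of 7 and 5 allow, and 0.00189 after adjustment over 3 ratios). The paralogues therefore differed in their change. C1ql3 shares exon bases with 3 genes annotated on the other strand, among them Pter, which had 95.8 ± 8.50 CPM (SD, n = 7) in the controls and 88.5 ± 7.49 CPM (SD, n = 5) in the EtOH mice.

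Prox1, the homeobox factor of granule neurons, is on chromosome 1 from 189850232 to 189904637 (minus strand). In the controls it ran from 14.4 to 20.4 CPM with a median of 16.98 CPM, and in EtOH mice 1 to 5 it was 47.1, 59.3, 40.6, 20.9 and 38.2 CPM. EtOH mouse 4 was only just above the highest control, while the other 4 were well above it. The log2 fold change was 1.29 (SE 0.17, adjusted p = 3.4e-05 by edgeR) and 1.45 without EtOH mouse 4. The antisense transcript Prox1os, whose exons overlap those of Prox1, was also called higher, at 0.902 ± 0.320 (SD, n = 7) and 1.67 ± 0.876 CPM (SD, n = 5). The strand setting of the counting is not given, so reads in the shared exons cannot be assigned to either.

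Neurod1, a basic helix-loop-helix factor of neuronal differentiation, is on chromosome 2 from 79282865 to 79287294 (minus strand). Its control values ran from 11.1 to 14.1 CPM (median 12.2), and EtOH mice 1 to 5 had 22.6, 21.8, 26.9, 21.3 and 20.8 CPM. Here the 5 EtOH mice lay close together, 1.29-fold from lowest to highest, and the log2 fold change was 0.88 (SE 0.08, adjusted p = 5.64e-07 by edgeR). The log2 ratio of Prox1 to Neurod1 was 0.45 ± 0.18 (SD, n = 7) in the controls and 0.79 ± 0.55 (SD, n = 5) in the EtOH mice, a difference of 0.34 that did not pass (p = 0.155 in a two-sided exact permutation test, and 0.155 after adjustment over 3 ratios). Without EtOH mouse 4, which had the lowest ratio (-0.025), the difference was 0.54 (exact permutation p = 0.00606), so this call rested on that mouse. Cerkl on the same strand, which shares 204 exon bases with Neurod1, was called higher at 0.519 ± 0.283 (SD, n = 7) and 1.68 ± 0.437 CPM (SD, n = 5).

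Dsp showed the largest log2 fold change of the 8 genes. It encodes desmoplakin, which ties desmosomes to intermediate filaments, and lies on chromosome 13 from 38335230 to 38382553 (plus strand). Of the controls, 6 had 4 to 8 counts and control mouse 5 had 40, or 0.977 CPM. EtOH mice 1 to 5 had 14.5, 18.4, 7.96, 2.85 and 8.57 CPM, or 94 to 624 counts. All EtOH mice were above every control mouse, and control mouse 5 and EtOH mouse 4 came nearest to each other. The log2 fold change was 4.97 (SE 0.46, adjusted p = 5.72e-07 by edgeR) and 5.68 without control mouse 5, and is a description, since Dsp entered the test through the EtOH mice.

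Lct encodes lactase-phlorizin hydrolase, known from the small intestine and also listed as a granule cell marker, and lies on chromosome 1 from 128212493 to 128256055 (minus strand). It ran from 0.733 to 2.02 CPM in the controls (median 0.957). EtOH mice 1 to 5 had 9.87, 19.2, 6.44, 2.70 and 6.87 CPM, so that mouse 2 had 7.10 times the level of mouse 4. The log2 fold change was 2.97 (SE 0.37, adjusted p = 1.66e-05 by edgeR), and the groups did not overlap.

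Tdo2 encodes tryptophan 2,3-dioxygenase, which opens the kynurenine pathway of tryptophan breakdown, and lies on chromosome 3 from 81864248 to 81883509 (minus strand). It was a low gene, with 12 to 40 counts in the controls and 21 to 68 in the EtOH mice. The controls ran from 0.375 to 0.977 CPM (median 0.609), and EtOH mice 1 to 5 had 1.58, 2.05, 1.31, 0.637 and 1.58 CPM. EtOH mouse 4 fell inside the control range and the other 4 lay above it. The log2 fold change was 1.17 (SE 0.28, adjusted p = 0.00631 by edgeR). Exons of Ctso on the opposite strand cover 2004 of the 4030 exon bases of Tdo2, and Ctso had 26.7 ± 1.80 (SD, n = 7) and 26.4 ± 1.97 CPM (SD, n = 5).

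Calb1, which encodes the calcium buffer calbindin, was the most abundant of the 8 genes per exon length and lies on chromosome 4 from 15881155 to 15908085 (plus strand). It ran from 108 to 133 CPM in the controls (median 118), and EtOH mice 1 to 5 had 123, 106, 139, 120 and 118 CPM. The groups overlapped, with EtOH mouse 2 just below and EtOH mouse 3 just above the control range. The log2 fold change of 0.00098 had a 95% interval of -0.14 to 0.14 (adjusted p = 0.994 by edgeR). The log2 ratio of Prox1 to Calb1 rose from -2.84 ± 0.28 (SD, n = 7) to -1.63 ± 0.61 (SD, n = 5), which is 1.21 higher (p = 0.00126 in a two-sided exact permutation test and 0.00189 after adjustment over 3 ratios).

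The EtOH mice kept a common order in several of these genes. C1ql2, Dsp and Lct all ran, from highest to lowest, mouse 2, 1, 5, 3 and 4. EtOH mouse 2 was the highest and EtOH mouse 4 the lowest in 5 of the 8 genes, C1ql2, Dsp, Lct, Prox1 and Tdo2. Relative to the control mean, mouse 2 stood at 28.8-fold for C1ql2, 59.1-fold for Dsp, 16.5-fold for Lct, 3.50-fold for Prox1 and 3.26-fold for Tdo2. Mouse 4 stood at 10.02-fold, 9.18-fold, 2.33-fold, 1.24-fold and 1.01-fold for the same genes. Neurod1 (highest in mouse 3, lowest in mouse 5), C1ql3 (mouse 3 and mouse 1) and Calb1 (mouse 3 and mouse 2) followed other orders. Of the 16 other lists, 3 had the same extremes in their summed level, the further granule cell genes, the neuronal basic helix-loop-helix factors and the oligodendrocyte genes. The basic helix-loop-helix factors had 819, 867, 863, 803 and 812 CPM in EtOH mice 1 to 5, all above the controls at 593 to 701 CPM. The 5 oligodendrocyte genes had 3016, 4841, 2996, 2691 and 3361 CPM in EtOH mice 1 to 5, against 4049 to 5412 CPM in the controls. EtOH mouse 2 was thus within the control range for the oligodendrocyte genes and the other 4 were below it, and their part in the order of the granule cell genes was not tested.

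**Figure D2:**
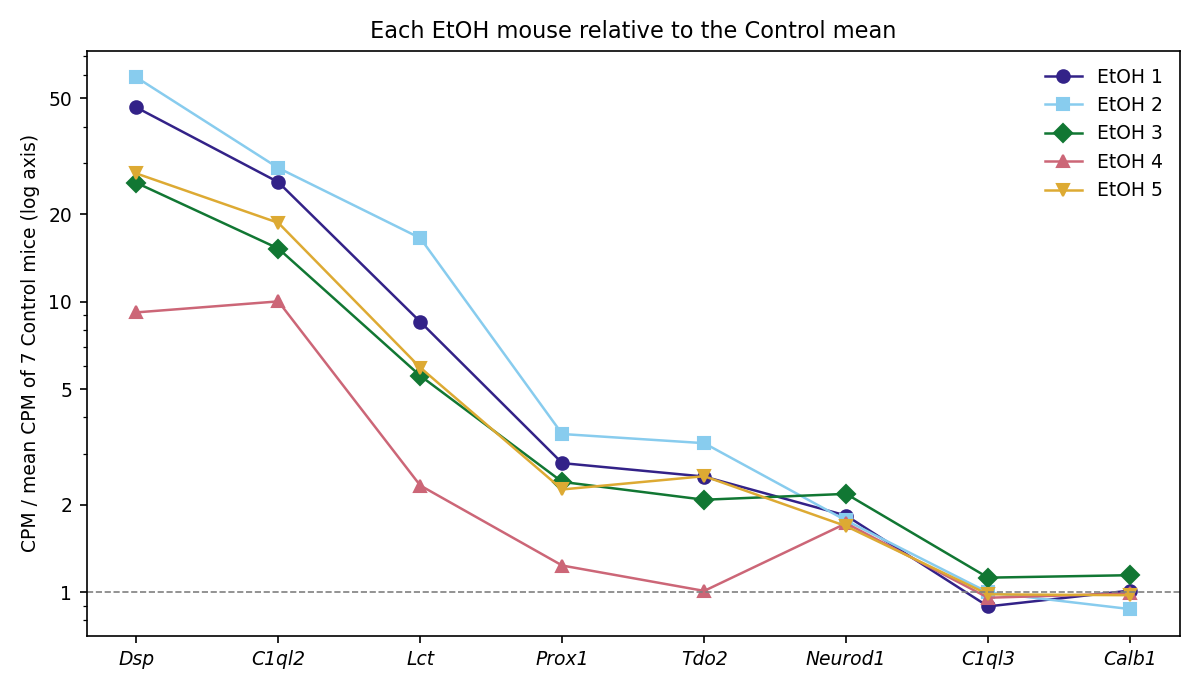
CPM of each EtOH mouse divided by the mean of the 7 Control mice (log axis) for the 8 genes; lines join the values of 1 mouse and the dashed line marks the control mean. EtOH mouse 2 is highest and EtOH mouse 4 lowest for Dsp, C1ql2, Lct, Prox1 and Tdo2, while the mice lie close together for Neurod1 and around 1 for C1ql3 and Calb1.

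Divided by the length of their annotated exons, the 8 genes fell in a different order in the groups. In the controls Calb1 led with 17.1 ± 1.36 CPM per kb (SD, n = 7), followed by C1ql3 with 9.43 ± 0.80, Neurod1 with 4.06 ± 0.36, Prox1 with 1.89 ± 0.25 and C1ql2 with 0.482 ± 0.106. Lct (0.181 ± 0.0735), Tdo2 (0.156 ± 0.0513) and Dsp (0.0320 ± 0.0309) came last, and Lct and Tdo2 did not differ beyond their spread. In the EtOH mice C1ql2 reached 9.49 ± 3.69 CPM per kb (SD, n = 5), and its spread took in C1ql3 at 9.35 ± 0.79 and overlapped those of Neurod1 (7.46 ± 0.80) and Prox1 (4.597 ± 1.56). Lct (1.41 ± 0.97) and Dsp (1.08 ± 0.62) followed, each within the spread of the other, and Tdo2 (0.355 ± 0.129) came last.

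**Figure D3:**
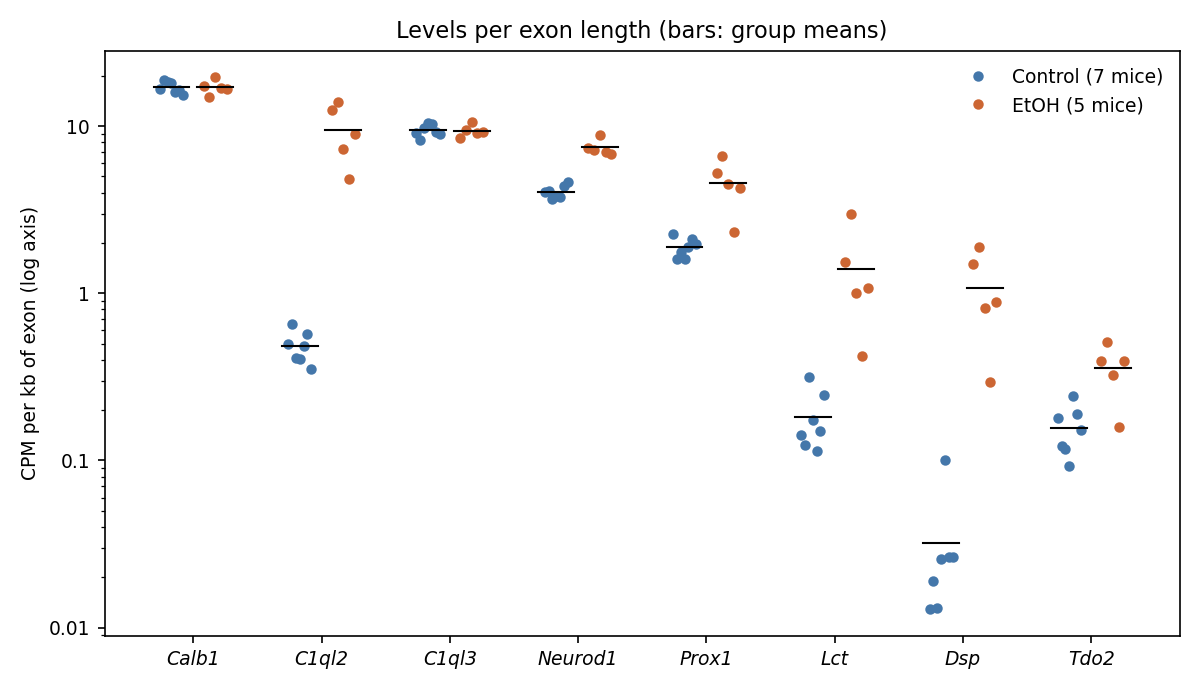
CPM per kb of annotated exon (log axis) of the 8 genes, ordered by their mean in the EtOH mice; points are mice and bars are group means. C1ql2 moves from 0.482 in the Control mice to 9.49 CPM per kb in the EtOH mice, level with C1ql3.

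The promoters of the 4 genes with the widest spread among the EtOH mice that did not overlap between the groups, and of C1ql3 as the paralogue whose level did not pass the test, are shown to set their sequences side by side. They are RefSeq entries given on GRCm38.p6, 250 bases before to 50 after a transcription start, and were matched to 1 place each in GRCm39. The places are chr1:120268062-120268361 (plus strand), chr13:38335020-38335319 (plus), chr1:128256006-128256305 (minus), chr1:189902975-189903274 (minus, 1 of 2 entries) and chr2:13015626-13015925 (minus). By the gene positions given above, the C1ql3 window and both Prox1 windows lie wholly inside the gene, downstream of its annotated start. They are therefore not the sequence upstream of that start. Each is printed 5′ to 3′ with every E-box in capitals, the motif CANNTG that basic helix-loop-helix factors such as Neurod1 bind, which reads the same on both strands.
C1ql2: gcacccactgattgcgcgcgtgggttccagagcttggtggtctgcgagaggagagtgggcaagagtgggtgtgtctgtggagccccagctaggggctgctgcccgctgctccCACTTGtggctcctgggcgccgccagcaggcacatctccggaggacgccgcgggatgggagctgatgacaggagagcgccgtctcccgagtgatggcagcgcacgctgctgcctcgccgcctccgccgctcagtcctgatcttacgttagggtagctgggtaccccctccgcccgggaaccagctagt
Dsp: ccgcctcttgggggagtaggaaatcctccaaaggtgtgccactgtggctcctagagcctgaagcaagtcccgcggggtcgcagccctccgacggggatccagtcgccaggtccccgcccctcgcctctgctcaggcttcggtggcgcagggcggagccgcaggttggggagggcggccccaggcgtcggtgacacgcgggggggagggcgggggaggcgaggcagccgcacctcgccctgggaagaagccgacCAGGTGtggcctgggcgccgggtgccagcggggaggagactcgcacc
Lct: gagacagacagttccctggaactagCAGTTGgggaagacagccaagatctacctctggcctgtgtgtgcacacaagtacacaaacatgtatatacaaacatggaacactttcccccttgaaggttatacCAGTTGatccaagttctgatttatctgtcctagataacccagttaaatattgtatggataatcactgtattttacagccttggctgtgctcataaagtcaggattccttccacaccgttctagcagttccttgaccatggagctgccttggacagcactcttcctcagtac
Prox1: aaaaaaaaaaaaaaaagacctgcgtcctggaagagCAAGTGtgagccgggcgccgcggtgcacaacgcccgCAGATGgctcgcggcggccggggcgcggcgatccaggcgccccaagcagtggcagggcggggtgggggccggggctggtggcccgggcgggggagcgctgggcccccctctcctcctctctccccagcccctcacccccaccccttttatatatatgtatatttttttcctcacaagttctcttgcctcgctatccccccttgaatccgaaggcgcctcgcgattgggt
C1ql3: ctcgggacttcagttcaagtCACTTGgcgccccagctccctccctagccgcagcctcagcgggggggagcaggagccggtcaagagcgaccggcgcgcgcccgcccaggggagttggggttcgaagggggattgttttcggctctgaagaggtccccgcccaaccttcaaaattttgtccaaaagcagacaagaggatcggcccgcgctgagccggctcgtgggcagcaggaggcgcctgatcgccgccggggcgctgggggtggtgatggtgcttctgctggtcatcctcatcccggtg

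C1ql2, Dsp and C1ql3 had 1 E-box each in this window, and Lct and the Prox1 entry shown had 2 each. The other Prox1 entry, at chr1:189901663-189901962, had 0 and 57.3% G and C. Of 32851 promoters of this length, 72.3% had at least 1, so a match is common. Counting both strands, the form CAGATG was in the Prox1 window shown and in 17.2% of all promoters. The form CAGGTG was in the Dsp window and in 20.2% of them. The promoters differed widely in base composition, from 44.7% G and C for Lct to 73.0% for Dsp, against a median of 52.7%. The table had entries for 7 of the 8 genes, with Calb1 not among them.

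Genes whose profile over the 12 mice lay nearest to a member were sought by the root mean square difference of log2 CPM, each gene centred on its mean. Nearest to C1ql2 were Krt2 (0.63 log2 units), Dsc3 (0.69) and Bglap3 (0.70). Krt2, a keratin, had 0 to 4 counts in the controls and 54 to 110 in the EtOH mice, and so entered the test only through the latter. Dsc3, the desmosomal cadherin desmocollin 3, had 4 to 18 counts in the controls and 88 to 202 in the EtOH mice. It too passed the filter only with the EtOH mice. Bglap3 belongs to a cluster of near-identical osteocalcin genes, so its counts are uncertain. Bglap3 (0 to 14 counts in the controls) and Fermt1 (0 to 16) also entered the test through the EtOH mice. Nearest to Prox1 were Tdo2 itself (0.25), Tshz2 (0.26) and Vwc2l (0.29), and nearest to Dsp were C1ql2 (0.76), Krt2 (1.09) and Fermt1 (1.12). Tshz2, a zinc finger homeobox gene, was 126 CPM in EtOH mouse 2 and 55.9 CPM in EtOH mouse 4, against 26.3 to 37.5 CPM in the controls. Ranked instead by Spearman correlation, 0 of the 3 nearest genes stayed the same for C1ql2, Prox1 or Dsp.

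Of 14 further granule cell genes, all tested, 3 were called higher (Tanc1, Ntng1 and Glis3) and 0 lower, with a median log2 fold change of 0.21. Tanc1, a postsynaptic scaffold gene, rose from 29.4 ± 3.09 CPM in the controls (SD, n = 7) to 71.9 ± 8.48 CPM in the EtOH mice (SD, n = 5). Ntng1, which encodes netrin G1, rose from 23.8 ± 4.92 CPM in the controls (SD, n = 7) to 52.3 ± 9.87 CPM in the EtOH mice (SD, n = 5). Glis3, a zinc finger factor, rose by a log2 fold change of 0.89. Ahcyl2 had a log2 fold change of 0.30 (adjusted p = 0.000256 by edgeR), under the minimum size. Fam163b was lower in every EtOH mouse than in any control, with a log2 fold change of -0.35 (adjusted p = 0.00117 by edgeR), also under the minimum size, and Pdzd2 had -0.29 (adjusted p = 0.0592 by edgeR). At an unadjusted p under 0.05, 7 of the 14 genes were higher and 2 lower, against 18.6% and 17.9% of all genes tested. Plk5, Stxbp6 and Trpc6, also used as granule cell markers, had log2 fold changes of -0.048, 0.11 and 0.066 and did not pass. Tanc1 was 72.5, 75.4, 78.7, 75.6 and 57.2 CPM in EtOH mice 1 to 5, so mouse 4 was not low for this gene. Dock10, a guanine nucleotide exchange factor gene, was 61.2, 66.6, 52.7, 39.7 and 49.8 CPM, highest in mouse 2 and lowest in mouse 4 as C1ql2 was. The summed level of the 14 genes was also highest in EtOH mouse 2 (1664 CPM) and lowest in EtOH mouse 4 (1465 CPM), within or just above the control range of 1339 to 1606 CPM.

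Of 10 genes of the hippocampal CA fields, 3 were higher (Fibcd1, Spink8 and Iyd) and 1 was lower (Bok), with a median log2 fold change of 0.20. Fibcd1, a CA1 marker, was 60.2, 51.4, 89.2, 102 and 61.7 CPM in EtOH mice 1 to 5, against 10.6 to 14.03 CPM in the controls. EtOH mouse 4 was thus the highest and EtOH mouse 2 the lowest for Fibcd1, the reverse of C1ql2 and Dsp. Spink8 rose by a log2 fold change of 2.14, with 2.76, 3.45, 3.34, 3.31 and 1.95 CPM in EtOH mice 1 to 5, so it was highest in mouse 2 and lowest in mouse 5. Iyd had 0 to 9 counts in the controls and 14 to 36 in the EtOH mice, with mouse 2 the highest and mouse 1 the lowest. It reached 10 counts in no control mouse and entered the test only through the EtOH mice, so its call is a description. Bok, which encodes a BCL2 family protein, was 37.9 ± 3.11 CPM in the controls (SD, n = 7) and 24.2 ± 4.305 CPM in the EtOH mice (SD, n = 5). The summed CA level was 562 CPM in EtOH mouse 4 and 416 CPM in EtOH mouse 2, while the controls ran from 329 to 439 CPM.

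Of 10 genes of immature granule neurons and their progenitors, 1 was higher (Bhlhe22, log2 fold change 0.96) and 2 were lower (Eomes and Igfbpl1, -4.25 and -1.62), of which limma voom did not call Eomes. Dcx, which encodes doublecortin of migrating young neurons, had a log2 fold change of 0.26 (adjusted p = 0.0387 by edgeR), below the minimum size, and Sox4 had -0.36 (adjusted p = 0.00242 by edgeR). Eomes, a factor of intermediate progenitors, was uneven in the controls, from 0.125 to 7.87 CPM, and 0.0910 to 0.278 CPM in the EtOH mice. Igfbpl1 was 1.199 to 1.98 CPM in the controls and 0.417 to 0.835 CPM in the EtOH mice. Eomes had 3 to 12 counts in the EtOH mice and entered the test through the controls, so its call is a description.

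Genes that act with the 8 were taken by role. In the C1q-like and cerebellin family, 5 of 6 genes were tested, and Cbln1 (log2 fold change 1.37) and Cbln4 (0.71) were higher and Cbln2 (-1.37) lower, while C1ql1 had -0.27 (adjusted p = 0.0954 by edgeR). Among 9 receptors and synaptic partners of these proteins 0 were called by edgeR, DESeq2 or limma voom. At an unadjusted p under 0.05 in edgeR, 3 of the 9 were higher and 0 lower, against 18.6% and 17.9% of all genes tested. Adgrb3, the adhesion receptor of C1q-like proteins, had a log2 fold change of 0.21 (adjusted p = 0.00397 by edgeR), and Grik4 and Grik5, kainate receptor subunits, had 0.19 and -0.11 (adjusted p = 0.0754 and 0.191 by edgeR).

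Of 10 desmosome genes besides Dsp, 9 were tested, of which Dsc3, Ppl, Pkp2 and Dsg2 were higher (log2 fold changes 3.43, 1.54, 1.28 and 0.56) and Jup and Pkp1 lower (-0.52 and -3.13). Pkp1 reached 10 counts in every control mouse and in no EtOH mouse, and so entered the test through the controls. Dsc3 passed the filter only with the EtOH mice, so the calls of Pkp1 and Dsc3 are descriptions. Leaving both aside, Ppl, Pkp2 and Dsg2 were higher and Jup was lower, so the called genes of this structure moved in both directions. Of 11 kynurenine pathway enzymes besides Tdo2, 6 were tested, and 1 was called, Ido1, which carries out the same reaction as Tdo2 and was lower, at 2.47 ± 0.614 CPM in the controls (SD, n = 7) and 0.308 ± 0.0622 CPM in the EtOH mice (SD, n = 5). Kyat1, Afmid and Ido2 had log2 fold changes of -0.18, 0.65 and -0.37 and did not pass. Among 8 basic helix-loop-helix factors besides Neurod1, Bhlhe22 was higher and 0 were lower, and Tcf4, Neurod2 and Neurod6 had log2 fold changes of 0.46, 0.36 and 0.26, under the minimum size. Among 10 cytosolic calcium binding proteins besides Calb1, Hpcal1 was higher (0.81) and 0 were lower, and Calm3, Calm2 and Ncald had -0.19, -0.18 and 0.16.

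Markers of other cells are given beside these results. All 10 striatal projection neuron genes were lower (median log2 fold change -2.86). Those with the smallest p in edgeR were Rgs9, Drd2, Ppp1r1b and Gpr6. Of 10 cortical excitatory neuron genes, which mark the labelled tissue and were abundant in every mouse (3088 to 3772 CPM in sum), 1 was higher (Fezf2, 0.60) and 1 lower (Lamp5, -0.51), and the median was 0.043. Of 6 choroid plexus genes, 5 were tested and 3 were higher, Kl, Ttr and Kcne2, of which limma voom called Kl alone. Kcne2 had 2 to 16 counts in the controls and 58, 6, 149, 50 and 7 in EtOH mice 1 to 5. It passed the filter on low counts only with EtOH mice 1, 3 and 4, so its call is a description. Ttr, which encodes transthyretin, was 97.8, 8.99, 911, 241 and 2.16 CPM in EtOH mice 1 to 5, against 3.13 to 13.1 CPM in the controls, so that EtOH mouse 2 was within the control range and EtOH mouse 5 below it. Kl was 14.6, 8.84, 47.9, 19.5 and 8.09 CPM in EtOH mice 1 to 5, all above the controls at 1.76 to 3.71 CPM.

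A few of the glial and interneuron markers were called, while most did not pass. Gfap was the 1 of 5 astrocyte genes called (log2 fold change 0.77), Mbp and Mobp were lower among 5 oligodendrocyte genes (-0.50 and -0.52), and Gad2 was lower among 5 interneuron genes (-0.63). Of 5 microglia genes 0 were called by edgeR, DESeq2 or limma voom. At an unadjusted p under 0.05 in edgeR, 0 of the 5 were higher and 4 lower, against 18.6% and 17.9% of all genes tested. Of the 4, Tmem119 and C1qa had log2 fold changes of -0.32 and -0.47 (adjusted p = 0.00206 and 0.00269 by edgeR). The part of any of these cells in the granule cell genes was not tested.

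**Figure D4:**
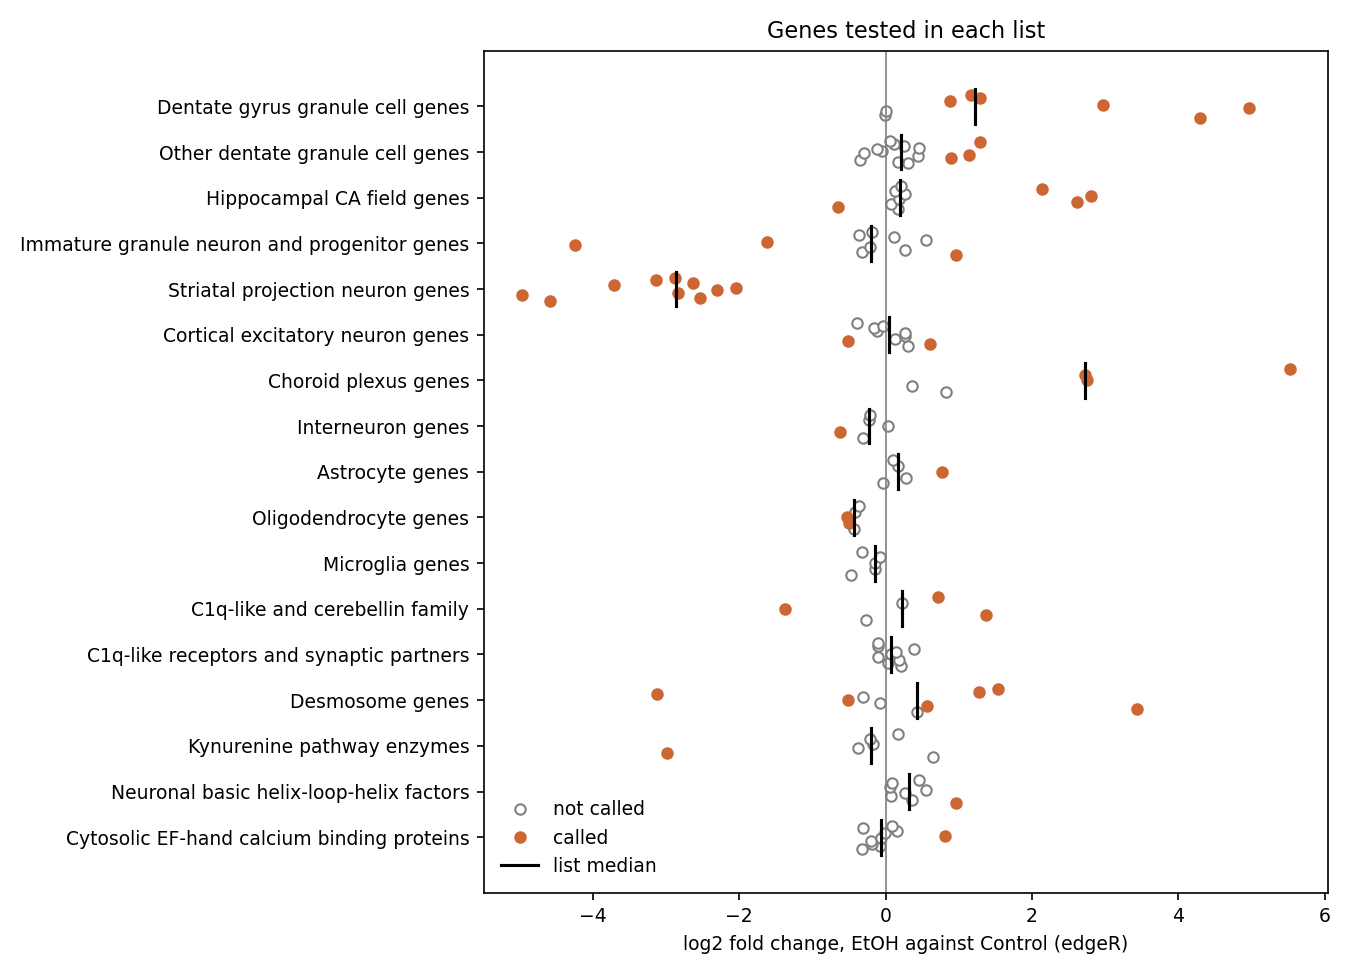
edgeR log2 fold changes, EtOH against Control, of the genes tested in the granule cell genes and the 16 other lists; filled points passed the call, open points did not, and black bars are list medians. The striatal genes lie wholly below 0, and the choroid plexus genes reach 5.52.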

How the data were processed

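RNA from the cortex of 12 mice was sequenced by BGI, 7 Control and 5 EtOH, with groups and mouse numbers taken from the labels. The authors aligned the reads to GRCm39 with STAR, counted them per gene with featureCounts (FastQC 0.11.9 for quality) and deposited expected counts per gene symbol without normalization, 1 column per mouse, all matched by name. Strand and multi-mapping settings are not given in the sources used here. For 61 symbols the counts were not whole, and all were rounded.

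The members and lists were chosen with earlier results of these data known. Genes were kept with filterByExpr, scaled with TMM and tested across all genes with edgeR 4.0.16 (limma 3.58.1, R 4.3.3) and Benjamini-Hochberg adjustment. Standard errors are the log2 fold change divided by the root of F. Log2 ratios used a prior count of 2. The steps were tested on simulated data. A floor of 3 counts corresponds to 0.0711 to 0.0944 CPM and covers counting error only. The chi-square per degree of freedom between mice of a group was at least 7.49, so no 2 libraries were alike within sampling noise. Alternatives were DESeq2 1.42.0, limma voom, other factors, filters and fold minimums, the replicate number as a block, and mice left out, as the closing section gives.

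Named are the 8 members, their 3 nearest genes for C1ql2, Prox1 and Dsp, up to 4 genes of smallest p per list, every gene behind a count of 5 or fewer, and genes overlapping a member. Plk5, Stxbp6, Trpc6, Fam163b, Pdzd2, Dock10 and Dcx were chosen after their values were seen. The values of 1 further list gene are not reported here. Exon lengths, positions and overlaps are from the Gencode annotation M39, which is newer than that of the authors.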

Additional observations from a re-analysis of the deposited data

Results flagged for a closer look

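In 48 comparisons of 1 mouse with the rest of its group, over the 8 genes and the summed level of 16 lists, 3 mice stood far apart, where chance gives about 2.4. Control mouse 5 had the highest Dsp of the controls, 0.0513 in log2 CPM, where the next had -1.66. Control mouse 7 had the highest summed level of the neuronal basic helix-loop-helix factors, 9.45 in log2 CPM, where the next control had 9.31. EtOH mouse 3 had the highest summed level of the astrocyte genes, 10.05 in log2 CPM, where the next EtOH mouse had 9.95.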

How the results depend on the processing

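The number of granule cell genes called higher was 5 or 6 under all 22 alternatives and 0 were called lower. It was 5 where at least 10 counts were required in every mouse, a filter that Dsp did not pass, and where the log2 fold change had to exceed 1, which Neurod1 did not reach. With 1 mouse left out, 6 genes were called in each of the 12 fits. The log2 fold changes over the alternatives ran from 4.11 to 4.46 for C1ql2, 4.67 to 5.68 for Dsp, 2.49 to 3.20 for Lct, 1.11 to 1.45 for Prox1, 1.00 to 1.35 for Tdo2 and 0.81 to 0.94 for Neurod1.

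The values of C1ql3 and Calb1 lay so near 0 that their sign changed. C1ql3 ran from -0.062 to 0.026 with 1 mouse left out and was 0.052 without the 2 deepest libraries. Calb1 ran from -0.053 to 0.038 with 1 mouse left out, and was -2.3e-05 with limma voom, -0.0044 with upper quartile factors, -0.043 with the replicate block and -0.015 without the 2 deepest libraries. Neither passed the threshold in any of these fits.

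Without a fold change minimum, 33 and 33 genes of the other lists were higher and lower, and 1947 and 1863 of all genes. With a minimum of 1, these were 12 higher in the other lists, and 242 higher and 282 lower of all genes. The ratio of Prox1 to Neurod1 differed by 0.18 to 0.54 with 1 mouse left out, and passed only without EtOH mouse 4. Under Spearman correlation, 0 of the 3 nearest genes were kept for C1ql2, 0 for Prox1 and 0 for Dsp; the cause was not tested.

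The labels state no pairing by mouse number, and none was seen. Same-numbered mice correlated between -0.108 and 0.018 in their deviations from group means. Of the EtOH mice, 0 of 5 correlated best with the control of their number. These correlations cannot exclude a pairing. With the replicate block, 6 granule cell genes were higher, and 690 and 634 of all genes were higher and lower against 674 and 657.

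Dsp, Tdo2 and Iyd rest on few counts in the controls, which limits the precision of their fold changes.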
